A study of Mus musculus with 12 samples.

Results

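The 4 tumours described here were the control tumours of a study of doxorubicin delivery, and they were chosen by their titles alone from the 12 arrays of the series. They grew from cells of C26, a colon carcinoma line of the mouse, injected under the skin of the flank of Balb/c mice aged 6 weeks. The mice received phosphate-buffered saline (PBS) on day 8 after inoculation, at a tumour size of about 50 mm3, and the tumours were taken 48 h later. The control mice were thus injected, with saline and no drug, so that the tumours are called PBS tumours here. The labels call them xenografts, although C26 itself arose in Balb/c mice, so that tumour and host share a strain. The other 8 arrays, from tumours given doxorubicin in free or polypeptide-bound form, were not used, apart from an alternative choice of probe sets. Each PBS tumour came from its own mouse and was hybridized to its own array, and the replicate numbers of the titles name the tumours.

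A tumour grown under the skin is a mixture. Beside the carcinoma cells it holds fibroblasts that lay down matrix, blood vessels, macrophages and other immune cells, and its RNA is the sum over all of them. The colon epithelium from which such carcinomas arise is known for keratins, cell junction proteins and the intestinal transcription factors Cdx1 and Cdx2, and poorly differentiated carcinomas can lose these features. In RNA of whole tumours, fewer cells of a type and less RNA per cell cannot be told apart.

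Signals are given on the log2 scale of the deposited values, where a difference of 1 is a 2-fold change, and a mean ± SD is over the 4 tumours (n = 4). With 4 values, the 95% interval of an SD, for normally distributed values, runs from 0.57 to 3.73 times the SD, so that the order of genes by SD is approximate. A signal also depends on how well the probes of a gene bind. The order of genes by signal is therefore an order of probe sets, not of transcript numbers, and a low signal can come from poor probes. No comparison between groups was made, and the only test was Dixon's gap test for a single tumour apart from the other 3.

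Over 12393 genes, each by its probe set of highest mean, the mean signal ran from 3.18 to 14.64 with a median of 7.58. The distribution had a pair of peaks. The fullest bin of the lower peak held 599 genes between 5.00 and 5.25, and that of the upper peak held 503 genes between 8.25 and 8.50, with a dip to 340 genes between 6.50 and 6.75. To place the background, 85 measured genes of tissues that such a tumour is not thought to hold were used, such as photoreceptor, liver, pancreas, heart and male germ cell genes. Their median was 5.16, close to the lower peak, and their 90th percentile, 6.34, was taken as the background threshold. In all 4 tumours 3948 genes (31.9% of all genes) were at or under it, and these are called the background range. Above the threshold in all 4 tumours were 7557 genes (61.0%), 8445 (68.1%) in at least 1 tumour, and 888 in some tumours only. Control probe sets for TrpnX, a bacterial sequence, had a mean of 3.87 ± 0.05, under the 1st percentile of the genes (3.94). Of the 85 genes, 6 were above the threshold in all tumours, among them the natriuretic peptide gene Nppb (8.02 ± 0.56) and the trypsin gene Prss2 (7.95 ± 0.12). Sln, from the heart genes, was at 4.58, 4.56, 8.14 and 5.37 in replicates 1 to 4, above the threshold in replicate 3 alone. With the heart genes left out of the 85, an alternative that was not planned, the background range held 3904 genes.

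**Figure D1:**
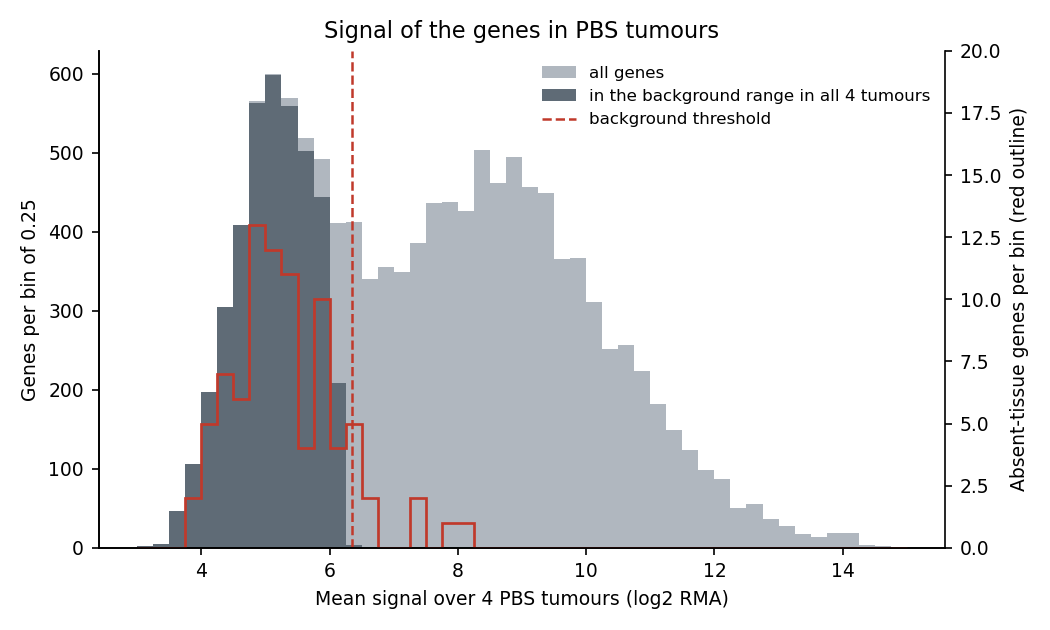
Histogram of the mean log2 signal of 12393 genes over the 4 PBS tumours (grey, left axis), with the genes in the background range in all 4 tumours in dark grey. The red outline counts the 85 absent-tissue genes on the right axis, and the dashed line is their 90th percentile at 6.34. The red outline lies under the lower of the 2 peaks.

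The highest signals belonged to protein synthesis, the cytoskeleton and mesenchymal genes. Of the 30 genes with the highest mean, which lay between 13.92 and 14.64, 16 were ribosomal protein genes by symbol. The highest of all was Lgals1, which encodes galectin-1, a sugar-binding protein, at 14.68, 14.59, 14.69 and 14.60 in replicates 1 to 4. Tpt1, which encodes the translationally controlled tumour protein, followed at 14.62 ± 0.02, and the elongation factor gene Eef1a1 was at 14.42 ± 0.03. Vim, which encodes vimentin, the intermediate filament protein of mesenchymal cells, was level with it at 14.42 ± 0.10. Among the 30 were also S100a6 (14.21 ± 0.07) and S100a4 (14.13 ± 0.05), which encode calcium-binding proteins, the actin genes Actb (14.17 ± 0.11) and Actg1 (14.02 ± 0.10), and Tmsb10 (13.95 ± 0.05), which encodes an actin-binding thymosin. Matrix and lysosome genes were represented by Col3a1 (14.10 ± 0.20), a fibrillar collagen gene, and Ctsl (13.97 ± 0.27), which encodes cathepsin L. Ctsl had the largest SD of the 30 and was at 14.26, 14.09, 13.87 and 13.64. The iron storage gene Fth1 (14.05 ± 0.10), the poly(A)-binding protein gene Pabpc1 (14.14 ± 0.10) and B2m (13.97 ± 0.11), the light chain of class I antigen-presenting molecules, were also among them. The median SD of the 30 was 0.05, compared with 0.18 over all genes.

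The gene families of basic cell function had nearly all members above the background, compared with 61.0% of all genes above the threshold in all tumours. Of 34 measured cytosolic ribosomal protein genes, 33 were above the threshold in all tumours, with a median of 13.85 and a median SD of 0.07. The exception was Rpl12 at 6.01 ± 0.48, whose probe set read 5.87, 6.64, 5.50 and 6.02. Ribosomal protein genes have many processed copies in the genome, and probes may read more than 1 of them. All 20 translation factor genes (median 12.64), 22 cytoskeleton genes (12.78), 26 subunits of oxidative phosphorylation (11.86), 12 glycolysis genes (11.74) and 22 proteasome subunits (11.75) were above it in every tumour. Ldha, which encodes the lactate dehydrogenase subunit of fermenting tissues, was at 13.03 ± 0.05, and the glucose transporter gene Slc2a1 at 11.10 ± 0.24. Of 21 mitosis genes 20 were above the threshold in every tumour, with a median of 9.85. Ccna2, the cyclin A2 gene, was at 11.70 ± 0.10, the spindle checkpoint target Cdc20 at 11.51 ± 0.14, and the proliferation marker Mki67 at 9.77 ± 0.25. The list means were 10.07, 10.14, 10.04 and 9.85, with 15 of 21 members highest in replicate 2, compared with 24.2% of all genes, and 14 lowest in replicate 4, compared with 28.3%.

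**Figure D2:**
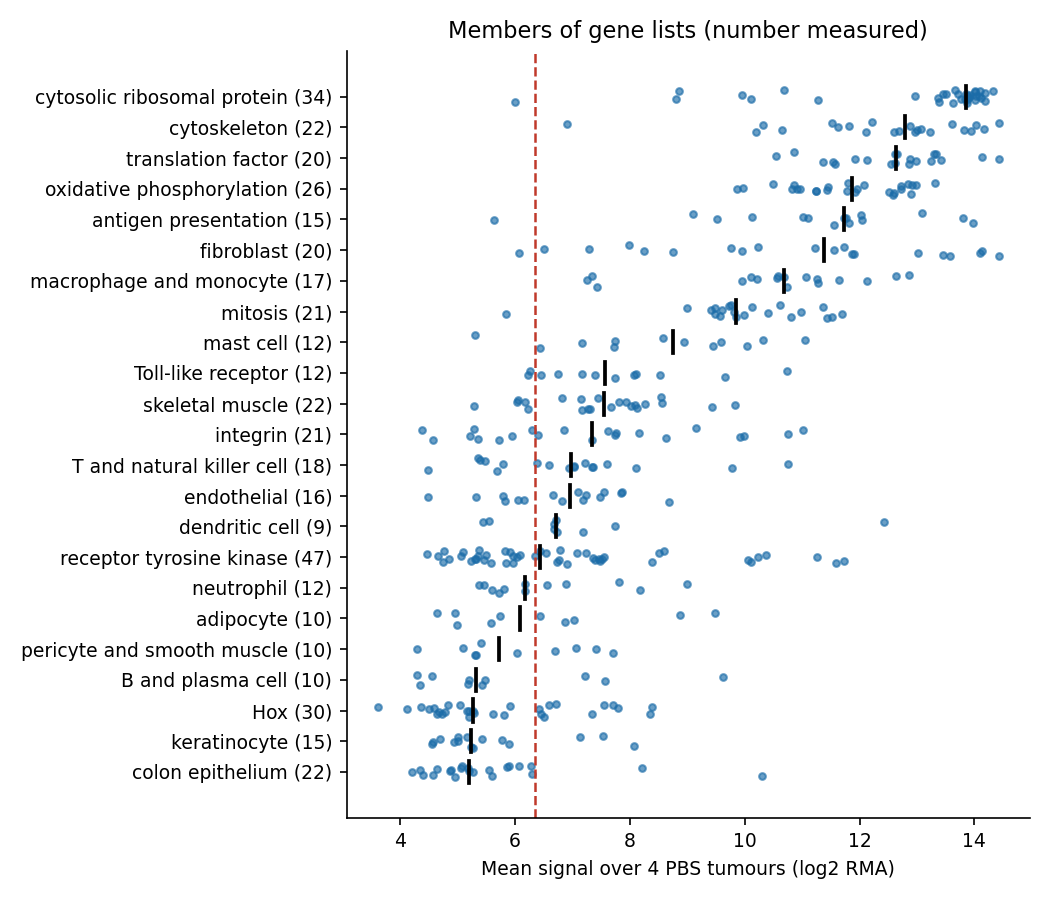
Mean log2 signal over the 4 PBS tumours of each measured member (points) of 23 gene lists, with the list median as a black bar and the background threshold as a dashed line. Ribosomal protein genes lie highest, at a median of 13.85, and colon epithelium genes lowest, at 5.19.

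Markers of colon epithelium went against the tissue of origin in the label. Of 22 measured colon epithelium genes, 18 were in the background range in all 4 tumours and 2 were above the threshold in all, whereas 61.0% of all genes were above it in all. The list median was 5.19, like that of the absent tissues. Cdx1 (4.21 ± 0.14) and Cdx2 (5.28 ± 0.10), the intestinal transcription factors, were in the background range, as were Vil1 (4.40 ± 0.11), which encodes the microvillus protein villin, and Cdh17 (4.88 ± 0.18), an intestinal cadherin gene. The general epithelial genes Cdh1 (E-cadherin, 5.54 ± 0.21), Epcam (5.90 ± 0.29), Cldn7 (4.64 ± 0.27) and Krt19 (4.88 ± 0.19) were in it as well. The members above it were the simple epithelial keratin genes Krt8 and Krt18, which encode partners of 1 filament. Krt8 was at 11.28, 10.30, 10.19 and 9.47 in replicates 1 to 4, and 2 other probe sets of Krt8 had the same tumour highest and the same tumour lowest. Krt18 was at 8.75, 8.63, 8.13 and 7.32. Both keratin genes were thus highest in replicate 1 and lowest in replicate 4. The transcription factor gene Hnf4a (6.30 ± 0.14) and the trefoil factor gene Tff3 (6.28 ± 0.15) lay just under the threshold on average.

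Families of epithelial genes gave a like count, although the lists partly hold the same genes. Krt8 and Krt18 are also in the colon epithelium list, and Krt10 is in both the keratin and the keratinocyte list. The colon epithelium list holds the keratin genes Krt19 and Krt20 too, and the keratinocyte list Krt1, Krt5, Krt14, Krt15 and Krt16. The counts of these lists are thus not separate. Over all genes 31.9% were in the background range. Of 18 keratin genes 14 were in the background range in all tumours, and 3, Krt8, Krt18 and Krt10 (7.53 ± 0.19), were above the threshold in all. Of 17 claudin and tight junction genes 12 were in the background range, Ocln (occludin, 4.27 ± 0.09) among them, while the scaffold gene Tjp1 was at 9.82 ± 0.33, Cldn1 at 7.86 ± 0.19 and F11r, a junctional adhesion molecule gene, at 7.79 ± 0.07. Of 15 keratinocyte genes 12 were in the background range, including the basal keratins Krt5 (5.77 ± 0.13) and Krt14 (5.43 ± 0.20) and the epidermal factor Trp63 (4.93 ± 0.12). The other 3 were Krt10, Lgals7 (8.07 ± 0.63) and Lor (7.13 ± 0.32). The list mean was 5.72, 5.53, 5.61 and 5.61, but with 12 of 15 genes in the background range it could show little difference between tumours. Of the 3 genes above the threshold, Lgals7 (8.79, 8.37, 7.70 and 7.41) and Krt10 (7.81, 7.44, 7.49 and 7.40) were highest in replicate 1. Lor (6.92, 6.80, 7.41 and 7.39) was highest in replicate 3.

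Mesenchymal and fibroblast genes were high in every tumour. Of 20 fibroblast genes, 18 were above the threshold in all tumours, compared with 61.0% of all genes, with a median of 11.39. After Vim, S100a4 and Col3a1 came Dcn (decorin, 13.58 ± 0.15), Sparc, a matrix glycoprotein gene (13.45 ± 0.21), and Col1a2 (13.02 ± 0.26). Tagln (6.08 ± 0.23), which encodes a contractile protein of smooth muscle, was in the background range, whereas the smooth muscle actin gene Acta2 was at 9.77 ± 0.21. The carcinoma line and the host's fibroblasts could both supply these transcripts, and the data do not separate them. Of the 20 fibroblast genes 13 were lowest in replicate 4, compared with 28.3% of all genes. Another 6 were lowest in replicate 2, compared with 34.7% of all genes, and 1 in replicate 1. Matrix genes thus did not all vary alike. Col1a1 was at 11.51, 12.01, 10.83 and 10.55 and Fn1, the fibronectin gene, at 12.23, 12.29, 11.97 and 10.97, lowest in replicate 4. Lum (lumican) was at 8.80, 7.27, 9.25 and 9.67 and Fap, the fibroblast activation protein gene, at 7.85, 6.79, 8.56 and 8.71, lowest in replicate 2. Postn, the periostin gene (7.48, 6.38, 7.66 and 7.61), and Igf1, a growth factor gene outside the list that was chosen after its values were seen (6.94, 5.59, 7.52 and 8.02), were also lowest in replicate 2.

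Of the receptor tyrosine kinases, which carry growth factor signals across the membrane, 47 were measured. In all tumours 22 were above the threshold, a smaller share than the 61.0% of all genes. Another 22 were in the background range, a larger share than the 31.9% of all genes. The highest were the platelet-derived growth factor receptor gene Pdgfra (11.74 ± 0.39), Axl (11.60 ± 0.39), the macrophage receptor gene Csf1r (11.26 ± 0.45), Fgfr1 (10.38 ± 0.48) and Pdgfrb (10.23 ± 0.20). Receptors known from epithelia were lower: Met was at 7.55 ± 0.18, Egfr at 7.46 ± 0.22, Erbb2 at 6.76 ± 0.20 and Erbb3 at 5.96 ± 0.33, the last in the background range. The insulin receptor gene Insr (5.50 ± 0.21), which most cells are known to use, was also in the background range by both of its probe sets. Of 21 integrin genes 12 were above the threshold in all tumours, near the 61.0% of all genes. The highest were Itgb1 (11.01 ± 0.27) and Itgav (10.75 ± 0.08), subunits of matrix receptors. Itga5, the fibronectin receptor subunit, varied most of them, at 8.95, 9.67, 8.37 and 7.55.

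Hox genes, which keep a record of position along the body axis, were mostly in the background range, 19 of 30, compared with 31.9% of all genes. The 8 above the threshold in all tumours were Hoxc8 (8.39 ± 0.18), Hoxd8 (8.35 ± 0.20), Hoxc9 (7.79 ± 0.06), Hoxc6 (7.71 ± 0.18), Hoxa7 (7.54 ± 0.15), Hoxc4 (7.34 ± 0.10), Hoxa3 (6.72 ± 0.09) and Hoxb2 (6.51). None of the measured genes of groups 10 to 13 was above the threshold, among them Hoxb13 (4.59 ± 0.16), Hoxa13 (4.83 ± 0.09) and Hoxd13 (4.78 ± 0.12). In 30 genes of the lowest signal, between 3.18 and 3.63, were genes of unrelated tissues, such as Folh1 (glutamate carboxypeptidase II, 3.18 ± 0.11), the defensin genes Defb5 (3.41 ± 0.08) and Defb8 (3.50 ± 0.20), Neurod6, a neuronal transcription factor gene (3.49 ± 0.07), and Pkhd1, the fibrocystin gene of kidney tubules (3.50 ± 0.05). Their median SD was 0.11, and none had a range of 1.

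Immune cells of the host were represented to different degrees. For the counts below, 61.0% of all genes were above the threshold in all tumours and 31.9% in the background range. All 17 macrophage and monocyte genes were above the threshold in every tumour, with a median of 10.69. Ctss (cathepsin S, 12.87 ± 0.18), Lyz2 (lysozyme, 12.63 ± 0.50) and the complement genes C1qa (12.12 ± 0.42), C1qb (11.65 ± 0.45) and C1qc (11.28 ± 0.35) were the highest. Of 12 mast cell genes 10 were above it in all tumours, led by the protease genes Tpsab1 (11.05 ± 0.38), Cpa3 (10.32 ± 0.56) and Cma1 (10.05 ± 0.61). T cell and natural killer cell genes lay lower, with 8 of 18 above the threshold in all tumours and a median of 6.98, and among them the granzyme genes Gzma (10.76 ± 0.50) and Gzmb (9.78 ± 0.42) were the highest. Foxp3, the factor of regulatory T cells, was at 4.49 ± 0.17. Of 10 B and plasma cell genes 7 were in the background range, including Cd79a (5.18 ± 0.09), Ms4a1 (4.29 ± 0.14) and Jchain (4.35 ± 0.16). Sdc1 (9.62 ± 0.36), the highest of that list, encodes a syndecan that epithelial cells and fibroblasts also carry. Of 12 neutrophil genes 3 were above it in all tumours, Mmp9 (8.99 ± 0.48), S100a8 (8.17 ± 0.41) and Csf3r (7.81 ± 0.19).

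Of 16 endothelial genes 9 were above the threshold in all tumours, a share near the 61.0% of all genes. Plvap, a protein of fenestrated endothelium, was at 8.69 ± 0.30 and Eng (endoglin) at 7.87 ± 0.07, while Tek (5.31 ± 0.30) and Vwf (4.49 ± 0.53) were in the background range. Among adipocyte genes, Fabp4, which macrophages and endothelium share with fat cells, was at 9.48 ± 0.56, and the fat cell hormone gene Adipoq was at 4.69, 4.56, 4.37 and 6.20, in the background range but set apart in replicate 4. Of the sex-linked genes, Xist, the RNA that coats the inactive X chromosome, was at 7.08, 7.19, 7.15 and 8.17, whereas the Y-linked genes Uty (4.72 ± 0.19), Kdm5d (4.57 ± 0.15) and Eif2s3y (3.64 ± 0.03) were in the background range in every tumour. The labels do not give the sex of the mice.

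Of 24 interleukin and colony-stimulating factor genes 14 were in the background range in all tumours and 6 above the threshold in all. Over all genes these shares were 31.9% and 61.0%. Csf1, which supports macrophages, was at 9.40 ± 0.34, the inflammatory cytokine gene Il1b at 9.23 ± 0.23 and its antagonist Il1rn at 8.43 ± 0.27. The other 3 were Il11, Il18 and Il16. The T cell cytokines Il2 (4.92 ± 0.14) and Il4 (4.28 ± 0.09) and the granulocyte factors Csf2 (5.31 ± 0.23) and Csf3 (5.45 ± 0.21) were in the background range. Cytokines of the interleukin 6 family, which are known for their part in the wasting that C26 tumours cause, varied most: Lif was at 9.29, 7.86, 6.53 and 5.84, Il11 at 9.46, 9.12, 8.03 and 6.76, and Il6 at 7.77, 6.38, 5.45 and 5.24. All 3 were highest in replicate 1 and lowest in replicate 4.

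The tumours differed little in most genes. The median SD was 0.18, the median range (highest minus lowest tumour) 0.40, and 901 of 12393 genes (7.27%) had a range of at least 1, that is 2-fold. Without replicate 4, 470 genes had such a range. A range of at least 2 was found in 143 genes (1.15%). The spread was widest at moderate signals: 12.8% of the genes in the fifth of 10 equal groups by signal had a 2-fold range, compared with 1.45% in the lowest and 5.00% in the highest group. Pairs of tumours were not equally alike. Replicates 1 and 2 differed at least 2-fold in 105 genes (Pearson r across genes 0.992), replicates 3 and 4 in 167 (r = 0.989), and the other 4 pairs in 306 to 516 (r from 0.976 to 0.978), most between replicates 2 and 4. Genes within an array are not independent, so that r is a description.

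**Figure D3:**
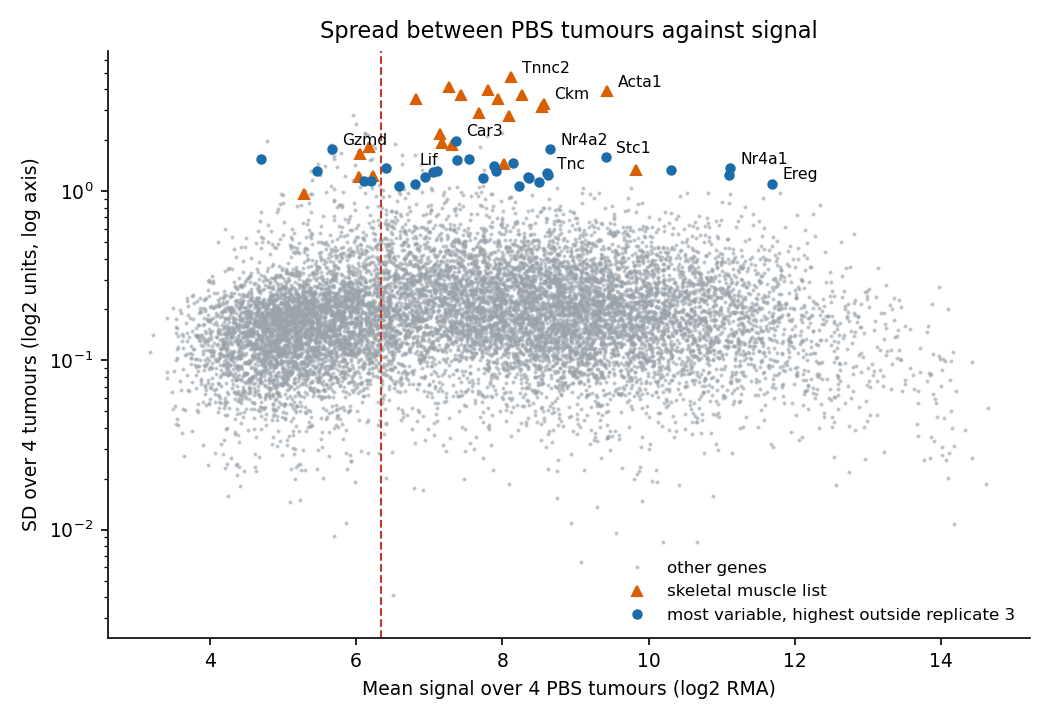
SD over the 4 PBS tumours (log axis) against the mean log2 signal, with 1 point a gene. Triangles are the 22 skeletal muscle genes, blue circles the 30 most variable genes that were highest outside replicate 3, and the dashed line is the background threshold. Muscle genes hold the highest SDs, up to 4.70 for Tnnc2.

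Some technical values differed between the arrays. The 24 probe sets for bacterial RNAs added before labelling (dap, lys, phe and thr) had a mean of 8.85, 8.78, 9.53 and 9.71 in replicates 1 to 4, and the 18 for RNAs added at hybridization had 10.89, 10.32, 10.97 and 10.59. The 3 probe sets for 18S ribosomal RNA were far apart, at 10.62, 5.84, 7.71 and 8.00. The difference between the 3′ and 5′ probe sets, a sign of RNA integrity, was 0.63, 0.38, 0.54 and 0.45 for beta-actin and between -0.12 and -0.07 for Gapdh. Array medians lay between 7.54 and 7.63 over all genes.

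Skeletal muscle genes made up most of the variable end. Of the 30 genes with the highest SD, 16 were in the list of 22 measured muscle genes, and 29 were highest in replicate 3. With replicate 3 left out, 17 of the 30 were still among the 30 genes of highest SD. Tnnc2, the calcium-binding troponin of fast muscle, had the largest SD, at 4.10, 4.11, 13.09 and 11.18. Acta1, the skeletal muscle actin gene, was at 6.15, 6.10, 13.59 and 11.91, and the fast myosin gene Myh4 at 3.81, 3.77, 11.93 and 9.57. The creatine kinase gene Ckm was at 5.78, 5.82, 12.31 and 10.35. In replicates 1 and 2 these genes were in the background range, and in replicate 3 they were higher than in replicate 4. All 22 listed genes were highest in replicate 3, where 20.0% of all genes were, and all 22 had a 2-fold range, compared with 7.27% of all genes. The list mean was 5.34, 5.24, 10.59 and 8.87. The RNAs added before labelling were also higher in replicates 3 and 4 than in replicates 1 and 2, and their part in this result was not tested. Within the list, Myh2 (5.28 ± 0.96), the myosin gene of another fast fibre type, had the lowest SD.

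The other genes of the 30 were for the most part known from muscle too: Myot (myotilin), Smpx, Fhl1, Tmod4, Pgam2, Pdlim3, Apobec2, Cmya5 and Sh3bgr. Cryab, a small heat shock protein gene, was at 6.62, 5.92, 10.84 and 8.62, and Pdk4, a kinase that turns muscle to fat burning, at 4.66, 4.18, 8.92 and 6.72. Genes of other kinds were Cd24a, a surface glycoprotein gene (5.30, 6.07, 9.30 and 8.11), Bex1 (3.36, 3.75, 7.68 and 4.32), known from neurons and regenerating muscle, and Car3, the carbonic anhydrase of muscle and fat, the single gene of the 30 that was highest in replicate 4 (5.86, 5.43, 8.95 and 9.21). Bex1 stood apart in replicate 3 alone. Des, the desmin gene, listed with pericytes and smooth muscle but shared with skeletal muscle, followed the same order (6.33, 6.19, 10.03 and 8.25). Of the 10 measured genes of its list 6 were in the background range, compared with 31.9% of all genes. Cnn1 (5.10 ± 0.09) and Myh11 (5.40 ± 0.17), which mark smooth muscle, were among them. Rgs5 (7.42 ± 0.78) and Cspg4 (7.06 ± 0.27) were above the threshold in all tumours, as was the smooth muscle actin gene Acta2 of the fibroblast list (9.77 ± 0.21).

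Short sequences upstream of the muscle genes are shown because these genes varied together and because myogenic factors of the MyoD family are known to bind the palindrome CAGCTG, a form of the E-box. In the 250 bases upstream of the start in RefSeq (build GRCm38.p6), 9 of 16 muscle list genes with a promoter entry held CAGCTG (56.2%), compared with 14.4% of 9882 genes. Of the 143 genes with a range of at least 2, 107 had an entry and 36.4% held it, and of the 30 genes of highest signal 25 had an entry and 0 held it. The 30 most variable genes that were highest outside replicate 3 included 0 muscle list genes. Of these, 22 had an entry and 7 (31.8%) held the motif, so that a share above that of all genes was not particular to muscle genes. A match of 6 letters is a description and not a binding site. For the 4 muscle list genes of highest SD that held it, 60 bases are given 5′ to 3′, on the strand of the gene, with CAGCTG in capitals.
Myh4, chr11:67237718-67237777, plus strand: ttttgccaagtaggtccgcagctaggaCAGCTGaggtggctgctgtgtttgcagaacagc
Myl1, chr1:66945247-66945306, minus strand: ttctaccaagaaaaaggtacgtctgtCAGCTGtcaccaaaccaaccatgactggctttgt
Acta1, chr8:123894964-123895023, minus strand: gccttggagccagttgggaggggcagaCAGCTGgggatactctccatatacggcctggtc
Mylpf, chr7:127211530-127211589, plus strand: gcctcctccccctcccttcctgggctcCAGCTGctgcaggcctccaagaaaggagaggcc
The motif began 67, 224, 221 and 51 bases before the start of these genes. The MEF2 site, the motif of another family of muscle factors, was found on either strand upstream of 4 of the 16 muscle genes, compared with 2.27% of all genes. The CArG box, to which serum response factor binds, was found upstream of 2 (12.5%), compared with 1.60%. It was also upstream of 8.00% of the 25 genes of highest signal and 9.09% of the 22 dimmest genes, so that it was not particular to muscle genes. CCGGAAG, a core of ETS factor sites common in promoters of housekeeping genes, was found upstream of 28.0% of the 25 genes of highest signal, of 12.9% of all genes and of 5.02% of 3027 genes in the background range. It was upstream of 9.09% of the 22 dimmest genes. Of the 24 genes of lowest SD above the threshold with an entry, 8.33% held it.

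**Figure D4:**
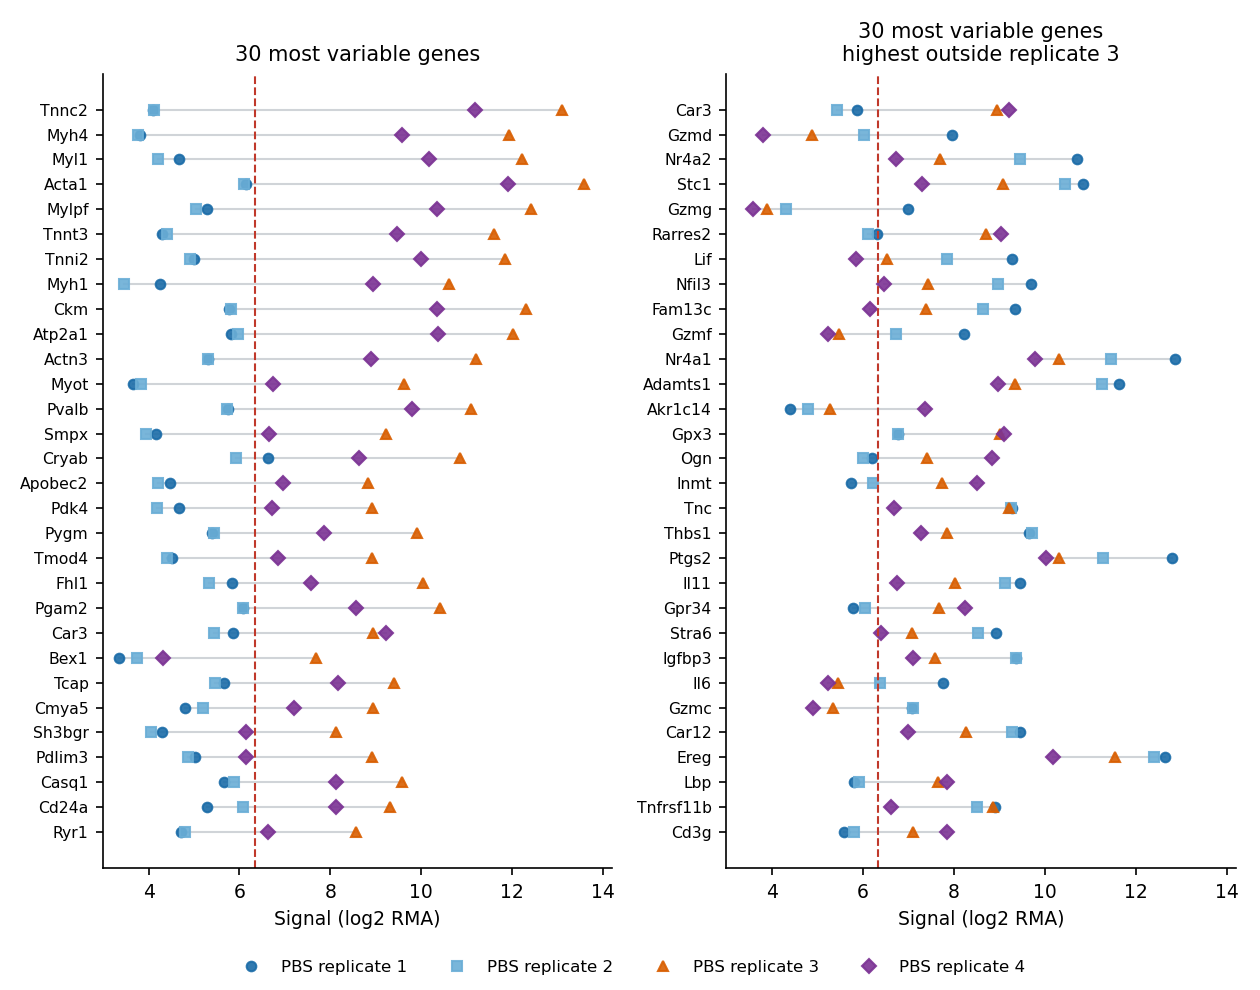
Log2 signal in each PBS tumour (1 symbol and colour a replicate) of the 30 genes with the highest SD (left) and of the 30 with the highest SD among genes that were highest outside replicate 3 (right), with the background threshold as a dashed line. On the left replicates 3 and 4 lie to the right, and on the right replicate 1 or 4 holds most of the highest values.

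Because replicate 3 held 29 of the 30 highest values, genes that were highest in another tumour were ranked separately, a choice made after the values were seen. Of the 30 most variable such genes, 18 were highest in replicate 1, 9 in replicate 4 and 3 in replicate 2, and 21 were lowest in replicate 4. Over all genes 28.3% were lowest in replicate 4. Genes with a 2-fold range and their highest value in replicate 1, 2, 3 or 4 numbered 199 (1.61% of all genes), 262 (2.11%), 198 (1.6%) and 242 (1.95%). Nr4a2, a nuclear receptor gene induced quickly by many stimuli, was at 10.71, 9.45, 7.70 and 6.73. Its relative Nr4a1 was at 12.88, 11.45, 10.32 and 9.78. Ptgs2, the gene of the prostaglandin enzyme cyclooxygenase 2, was at 12.79, 11.28, 10.32 and 10.02, and its other probe set had the same order. Gzmd, a granzyme gene of activated killer cells, was at 7.97, 6.03, 4.89 and 3.81. In the same order were Gzmg (6.99, 4.31, 3.89 and 3.59) and Gzmf (8.22, 6.74, 5.47 and 5.22). The granzyme genes of highest signal, Gzma and Gzmb, were instead lowest in replicate 1. Gzmd, Gzmf and Gzmg are close copies of each other, so that their probes may read the same transcripts.

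Further genes of the 30 were also lowest in replicate 4. Stc1, which encodes the secreted glycoprotein stanniocalcin, was at 10.84, 10.44, 9.09 and 7.30, and Ereg, an EGF receptor ligand gene, at 12.65, 12.39, 11.54 and 10.18. Tnc, the tenascin C gene, differed from these in that replicates 1 to 3 lay close together, at 9.28, 9.26 and 9.21, and replicate 4 was at 6.69. A like separation was seen for Tnfrsf11b, the osteoprotegerin gene (8.91, 8.51, 8.86 and 6.63). Thbs1 (thrombospondin 1) was at 9.66, 9.73, 7.86 and 7.27, Adamts1, a matrix protease gene, at 11.64, 11.26, 9.35 and 8.98, and Igfbp3 at 9.37, 9.38, 7.58 and 7.11, with replicates 1 and 2 well above replicates 3 and 4. The 18S signal was highest in replicate 1 and that of RNAs added before labelling highest in replicate 4, and their part in these patterns was not tested.

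The 9 genes of the 30 that were highest in replicate 4 included Ogn, Rarres2, Gpx3, Akr1c14 and Cd3g. Ogn, the matrix proteoglycan osteoglycin, was at 6.20, 6.00, 7.41 and 8.84, Rarres2, which encodes the fat cell signal chemerin, at 6.32, 6.12, 8.70 and 9.04, and Gpx3, a secreted glutathione peroxidase gene, at 6.78, 6.77, 9.03 and 9.10. Akr1c14, a steroid-metabolizing reductase gene, stood apart in replicate 4 at 4.39, 4.79, 5.29 and 7.37. Cd3g, a subunit of the T cell receptor complex, was at 5.58, 5.80, 7.11 and 7.84. Rarres2, Gpx3 and Cd3g were higher in both replicates 3 and 4 than in replicates 1 and 2.

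A second probe set gave a check within the arrays, since it reads other bases of the same transcript. Of 4956 genes with another probe set, 325 had a 2-fold range in the first, and in 252 of these (77.5%) the second was highest in the same tumour, compared with 48.8% of the 4631 genes with a smaller range. The median correlation of the 4 values between both probe sets was 0.96 and 0.65 in these groups. Among the 30 most variable genes the second probe set had the same tumour highest in 5 of 5, and among the 30 that were highest outside replicate 3 in 10 of 11. The mean of the second probe set was under the background threshold of 6.34 in 130 of the 325 genes and in 4 of the 11, which limits the check. For Lif the second probe set was in the same order (6.26, 5.55, 5.27 and 5.01), but all its values were under the threshold. The order was also the same for Nr4a2 (9.55, 8.65, 7.43 and 6.84) and Gzmd (7.97, 6.29, 4.39 and 3.57), the latter above the threshold in replicate 1 alone. Probe sets of a gene share the RNA of the tumour, so that they are not independent samples.

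Across all 901 genes with a 2-fold range, the largest gap between the ordered values set different tumours apart. In 172 genes replicate 4 alone was low, in 138 replicates 3 and 4 were high, in 103 replicates 1 and 2, in 99 replicate 3 alone, in 89 replicate 2 alone and in 87 replicate 4 alone. The 138 genes high in replicates 3 and 4 held 54 of the 143 genes with a range of at least 2, and the 89 genes high in replicate 2 alone held 0. Genes high in replicates 2 and 4 (3 genes) or 2 and 3 (4 genes) were rare.

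Replicate 2 was set apart by interferon-stimulated genes. Of 22 measured interferon response genes, which cells switch on against viruses, 21 were highest in replicate 2, where 24.2% of all genes were, and 15 had a 2-fold range, compared with 7.27% of all genes. The list mean was 9.46, 10.47, 9.44 and 9.67. Stat2, a transcription factor of the interferon pathway, was at 7.26, 8.95, 7.36 and 7.32, Usp18, which restrains the pathway, at 9.78, 11.04, 9.13 and 9.45, and Ifit1, an antiviral effector gene, at 9.32, 10.65, 9.47 and 9.53. Replicate 2 lay above the other 3 tumours in each of these genes, and its gap to the nearest was wider than the range of the other 3. The exception among the 22 was Cxcl9, a chemokine that attracts T cells, which was highest in replicate 4. Levels differed widely among the members. The antiviral GTPase gene Mx1 was at 6.75, 7.21, 5.79 and 6.18 and its relative Mx2 at 6.13, 6.59, 6.20 and 6.31, around the background threshold. Iigp1, an interferon-inducible GTPase gene, was at 12.04 ± 0.40 and the chemokine gene Cxcl10 at 10.99 ± 0.68. Among class I antigen presentation genes, the peptide transporter gene Tap1 was at 9.89, 10.81, 9.85 and 9.95. In replicate 2, the 18S signal and that of the RNAs added at hybridization were the lowest of the 4 arrays, and their part in this result was not tested.

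**Figure D5:**
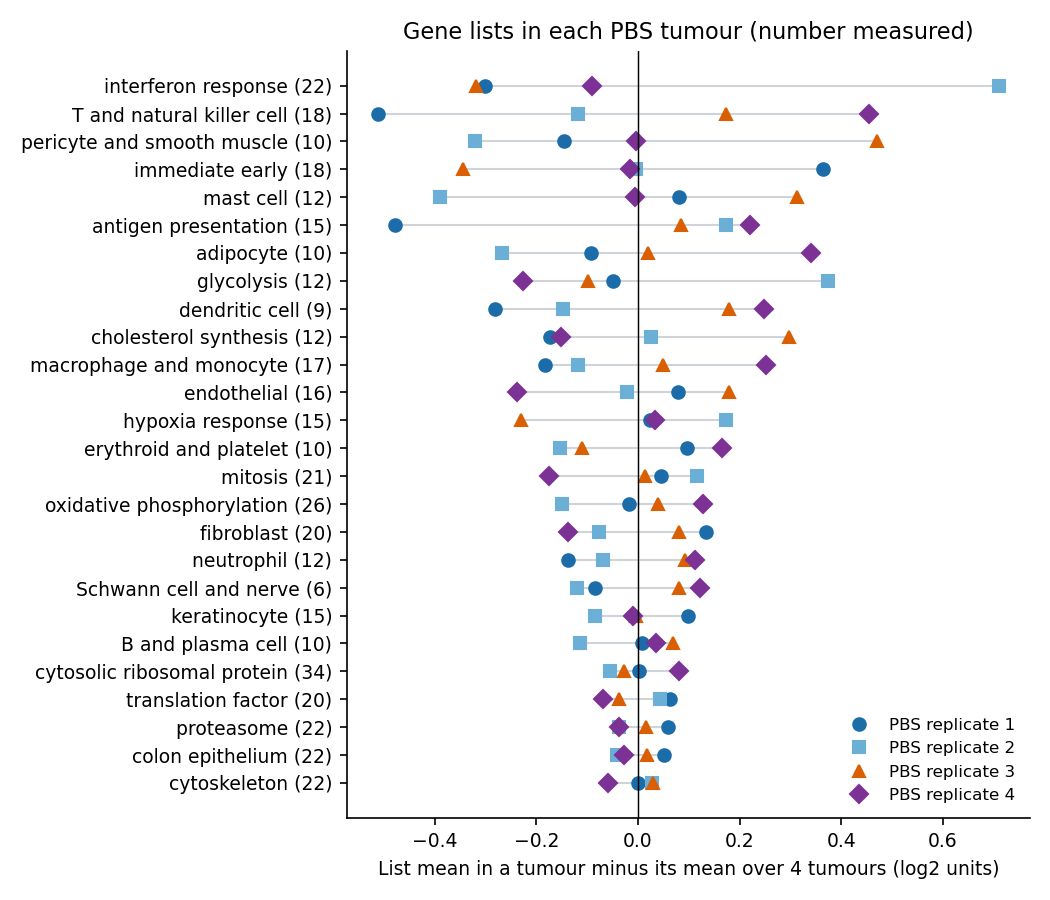
Mean of each gene list in a PBS tumour minus its mean over the 4 tumours, in log2 units (1 symbol and colour a replicate), for 26 lists ordered by their range, without the skeletal muscle list. Interferon response genes lie highest in replicate 2, and T and natural killer cell genes are lowest in replicate 1 and highest in replicate 4.

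T and natural killer cell genes and macrophage genes were most often lowest in replicate 1. The list mean of T and natural killer cell genes was 6.39, 6.79, 7.08 and 7.36, and 14 of 18 members were lowest in replicate 1, compared with 19.5% of all genes. Cd3d, a subunit of the T cell receptor complex, was at 6.48, 6.88, 7.93 and 8.13, and Gzma at 10.16, 10.82, 10.68 and 11.38. Of 17 macrophage and monocyte genes 11 were lowest in replicate 1 (list mean 10.27, 10.34, 10.51 and 10.71), with Lyz2 at 12.06, 12.41, 12.85 and 13.20. Going the other way, 3 of the 17 were highest in replicate 1. These were Cd14, Mrc1 and the scavenger receptor gene Cd163, the last at 8.88, 7.21, 6.65 and 6.99. Genes of class II antigen presentation, which dendritic cells, macrophages and B cells use to show peptides to T cells, varied most within the antigen presentation list: H2-Aa was at 10.56, 11.01, 12.32 and 12.37, H2-Eb1 at 9.93, 10.71, 11.81 and 11.98, and the invariant chain gene Cd74 at 11.04, 11.96, 12.55 and 12.58. Their partner in class I, B2m, varied by 0.23. Replicates 3 and 4, with higher class II genes, were also those with muscle genes above the background (list means 10.59 and 8.87), and whether these values are linked was not tested.

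Mast cell genes were lowest in replicate 2, with 9 of 12 members lowest there compared with 34.7% of all genes, and Cma1, the chymase gene, was at 9.96, 9.24, 10.67 and 10.33. Glycolysis genes were highest in replicate 2 in 10 of 12 cases, compared with 24.2% of all genes (list mean 10.87, 11.30, 10.82 and 10.69). The lactate transporter gene Slc16a3 was at 7.20, 8.63, 6.73 and 7.29 and the phosphofructokinase gene Pfkl at 9.35, 10.52, 8.96 and 9.28, while Ldha had an SD of 0.05. Hypoxia response genes, which overlap with glycolysis in Slc2a1 and Hk2, were at 8.68, 8.83, 8.43 and 8.69 and had no tumour apart. Of 12 cholesterol synthesis genes 10 were highest in replicate 3, compared with 20.0% of all genes, with a list mean of 9.01, 9.21, 9.48 and 9.04 and no member with a 2-fold range.

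Immediate early genes, which respond to stimuli within minutes, varied in different directions. Of 18, 11 had a 2-fold range, the largest share after the skeletal muscle and interferon lists among those of at least 12 genes, and the list mean was 9.96, 9.59, 9.25 and 9.58. Fos, a subunit of the AP-1 transcription factor, was at 10.12, 10.08, 9.91 and 11.97, set apart in replicate 4, whereas Egr1 was at 12.95, 11.87, 12.17 and 11.57, highest in replicate 1. Jun, the partner of Fos, was at 11.29 ± 0.23. Dusp1, which encodes a phosphatase that ends kinase signals, was at 11.01, 10.10, 10.04 and 11.26, high in replicates 1 and 4.

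Genes commonly used as references for RNA measurements differed in how steady they were. Tbp, the TATA-binding protein gene, had the lowest SD of the 13 measured, at 8.97, 8.90, 8.93 and 8.95 (SD 0.03), although its other probe set was in the background range. Hprt (10.93 ± 0.08), Ywhaz (12.32 ± 0.08), Sdha (10.49 ± 0.09), Rpl13a (14.01 ± 0.09), Actb, B2m and Rplp0 (13.88 ± 0.11) followed. Pgk1 (12.94 ± 0.14), Gusb (9.66 ± 0.18) and Eef2 (13.42 ± 0.23) were less steady. Tfrc, the transferrin receptor gene, was at 10.16, 10.43, 10.26 and 9.58, and Polr2a, the largest subunit of RNA polymerase II, at 9.14, 9.90, 8.76 and 8.09, an SD of 0.76. The other probe set of Polr2a was at 7.16, 7.60, 7.20 and 7.20, so that the low value of replicate 4 was not seen in it. The genes of lowest SD above the threshold were the ribosomal protein gene Rpl6 at 13.66, Hoxb2, the chaperone cofactor gene Bag2 at 9.08, Txnl4a (10.19 ± 0.01) and Ociad1 (10.66 ± 0.01).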

How the data were processed

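RNA of the 4 PBS tumours was measured on 1 array each, in a table of 22690 probe sets. The deposited values are log2 signals of RMA, a method of background correction, quantile normalization and summary over probes; RMA and Partek are named in the submitters' processing notes. No detection calls were used. Whether all 12 arrays were normalized together is unknown here.

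Of the probe sets, 64 were controls, 691 had several gene symbols, 1555 none and 20380 a single symbol in the platform annotation. Each of 12393 genes was given by its single-symbol probe set of highest mean over the 4 arrays; 4956 had more than 1. Means, SDs and ranges were computed with Python 3.11.15, pandas 2.3.3 and numpy 2.4.6, and the calculation was tested on simulated data. With 1 group, no difference between groups was tested, and Dixon's gap test for a single outlying tumour was the only test; precision is limited by having 4 arrays. The background threshold was the 90th percentile of 85 absent-tissue genes (of 96 listed). The 45 gene lists held 789 symbols, of which 687 were measured.

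Named genes were the 30 highest, 30 lowest (some of them) and 30 most variable, the highest and most variable members of each list, and all reference and sex-linked genes. Genes named outside this rule were chosen after their values were seen. The members and lists were chosen with earlier results of these data known. Promoter sequences came from RefSeq (GRCm38.p6), with an entry for 9882 genes. Alternatives were other probe set rules, normalizations, thresholds, measures of spread, a filter on dim genes and leaving out each tumour.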

Additional observations from a re-analysis of the deposited data

Results flagged for a closer look

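In 11 of 252 results examined (201 genes, 45 list means and 6 control values; 4.37%), 1 tumour lay so far from the other 3 that its gap to the nearest, as a share of the whole range, was above Dixon's 95% critical value for 4 samples. Chance flags about 1 in 20 such groups, and over all 12393 genes 616 (4.97%) were above it, so that the number of such genes is near what chance gives.

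Replicate 2 was apart and high in Stat2 (gap 0.941 of the range), Tap1 (0.897), Ifit1 (0.845) and B2m (0.877). Stat2 and Ifit1 are in the interferon list, and Tap1 and B2m, which serve the loading of class I molecules with peptides, are in the antigen presentation list. It was apart and low in Postn (0.862) and in Tff3 (0.913), which varied between 6.05 and 6.37 around the background threshold.

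Replicate 4 was apart and high in Fos (0.897), in Xist (0.905) and in Cdh17 (0.924), the last within the background range. A second probe set of Xist was at 6.42, 6.59, 7.34 and 8.44, also highest in replicate 4 but with replicate 3 between. Replicate 4 was apart and low in Tnc (0.970), the widest separation of the 11. Replicate 3 was apart and high in F11r (0.854), whose 4 values lay between 7.74 and 7.89.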

How the results depend on the processing

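No paired analysis was possible because the 4 tumours form 1 group. The median signal over genes, 7.58, was 7.12 with the mean of all probe sets of a gene and 8.93 with the dimmest 40% of genes left out, and 7.56 to 7.59 with each tumour left out. The 901 genes with a 2-fold range were 285 at a range of at least 1.5 and 143 at 2, and 470 to 753 with a tumour left out, lowest without replicate 4. The median SD, 0.18, was 0.15 to 0.18 with a tumour left out. Of the 30 highest genes, 17 were shared with the order by the mean of probe sets, and 28 to 29 with a tumour left out. Of the 30 most variable, 17 to 28 were shared with a tumour left out, fewest without replicate 3, and 1 when genes highest in replicate 3 were left out, an alternative chosen after seeing the data. The cause was not tested, except that leaving out genes or tumours lowers the count of genes with a 2-fold range by construction. The count of the background range can rise instead, and was 4043, 4122, 3937 and 3983 without replicates 1 to 4, compared with 3948. The background range held 3019 to 4369 genes over its alternatives, within 1.5 times the main count. Leaving out the dimmest 40% gives no background count and no order of dim genes. Under the alternatives that kept all 4 tumours, 58 of 943 gene means moved by more than 1 SD. The same held for 20 of 943 gene SDs and 33 of 180 list means. The 943 values include the filter on dim genes, which leaves the values of the kept genes unchanged. That filter could move no gene mean or SD and is no check of them. Leaving out a tumour moved none of these values. For a mean of the same probe set it could not have done so, so that those settings are no check here. Signals near 6.34 and below carry little information on level.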
